A study of Mus musculus with 2 samples.

Results

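The expression of 10 immediate early genes was followed at every probe set that named them, in 1 wild-type (WT) and 1 CD36KO pool of mouse proximal intestine. They were Fos, Fosb, Jun, Junb, Atf3, Egr1, Klf2, Ier2, Dusp1 and Zfp36. A probe set, the group of short probes that reads a transcript on an Affymetrix array, was taken where its annotation gave exactly 1 gene symbol and that symbol was among the 10 genes. This gave 11 probe sets, 2 for Jun and 1 for each other gene, of 34958 probe sets with 1 symbol and 45101 in all; 0 probe sets named a member together with another gene. The WT group was C57BL/6 mice and the CD36KO group carried a germline null Cd36 on that background. Cd36 is the gene of a fatty acid and thrombospondin receptor. Both genotypes were fed chow, and tissue was the upper part of the gut taken whole, so the RNA came from epithelium, gut wall and immune cells together. RNA of 3 animals was pooled per genotype and read on 1 array, so there was 1 value per probe set and genotype, no measure of variation between animals or arrays, and no test; age, sex and the time from death to lysis are not given here by any source.

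Immediate early genes are switched on within minutes of a stimulus, without new protein synthesis, through factors already present in the cell such as SRF with its ELK partners and CREB. FOS and JUN proteins pair as the AP-1 transcription factor, while DUSP1 and ZFP36 shut the response down again. In intestine and other tissues these mRNAs respond to growth factors, inflammation, feeding and stretch, and also to the handling and warm time of a sample before lysis, which is why they are read as signs of stimulation or of dissection. Their mRNAs are short-lived.

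The promoters of 8 of the 10 genes were found in the RefSeq windows of GRCm38.p6; Egr1 and Ier2 were not matched. Shown are the 250 bases before the annotated start for the genes with the highest readings in CD36KO relative to WT, Klf2 and Dusp1, and for Fos and Jun, whose readings lay near 0 or below. Each is written on the gene's own strand, at chr8:72318812-72319061 (plus strand), chr17:26508473-26508722 (minus), chr12:85473640-85473889 (plus) and chr4:95052223-95052472 (minus). Capitals mark each match to the motifs searched.
Klf2: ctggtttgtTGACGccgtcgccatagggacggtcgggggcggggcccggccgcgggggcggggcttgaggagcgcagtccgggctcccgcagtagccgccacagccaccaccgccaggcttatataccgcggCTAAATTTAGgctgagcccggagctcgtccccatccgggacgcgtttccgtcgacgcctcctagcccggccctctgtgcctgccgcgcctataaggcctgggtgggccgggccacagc
Dusp1: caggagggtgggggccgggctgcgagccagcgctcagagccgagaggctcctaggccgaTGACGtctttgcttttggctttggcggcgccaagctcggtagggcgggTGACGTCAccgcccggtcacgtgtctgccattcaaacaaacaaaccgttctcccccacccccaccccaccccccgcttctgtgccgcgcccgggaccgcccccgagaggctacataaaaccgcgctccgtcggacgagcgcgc
Fos: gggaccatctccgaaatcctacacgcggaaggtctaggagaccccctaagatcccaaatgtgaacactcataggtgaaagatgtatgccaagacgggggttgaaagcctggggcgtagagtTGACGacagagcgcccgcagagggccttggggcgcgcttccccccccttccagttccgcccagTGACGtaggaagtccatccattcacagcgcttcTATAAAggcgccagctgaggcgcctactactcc
Jun: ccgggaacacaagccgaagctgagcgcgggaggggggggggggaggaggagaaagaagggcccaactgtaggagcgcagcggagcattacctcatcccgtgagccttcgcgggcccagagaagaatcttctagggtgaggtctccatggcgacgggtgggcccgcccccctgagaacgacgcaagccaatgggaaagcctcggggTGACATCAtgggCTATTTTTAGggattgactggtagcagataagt

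The motifs were searched on both strands, apart from the TATA box, which was searched on the gene's strand. The Dusp1 window held the full cAMP response element TGACGTCA, bound by CREB and ATF proteins, which 1.55% of all 32851 promoter windows held. Its first part, TGACG, is contained in the full element and was present in 6 member windows (Fos, Fosb, Junb, Atf3, Dusp1 and Klf2) and in 17.8% of all windows. The Jun window held TGACATCA, the AP-1 variant through which JUN acts on its own gene (2.93% of windows). The MEF2 site, a target of ERK5 signalling, was matched in Klf2, Jun and Atf3 and in 2.92% of all windows. Among the 8 windows, the CArG box, bound by SRF, was matched in Zfp36 alone (1.47% of all windows) and TATAAA in Fos alone (7.59%). The AP-1 consensus TGACTCA was matched in 0 of the 8 windows (4.46%). Sequence outside the windows was not searched, nor were the member genes without a matched window. A missing match therefore does not show that a gene, such as Fos for the CArG box, lacks the site. The genes with TGACG read from -0.16 (Atf3) to 0.47 (Klf2) on the log2 scale in CD36KO relative to WT. Those without it, Jun and Zfp36, read between -0.21 and -0.05. These ranges overlap, and a relation between the motif and the differences was not tested. These letter matches are a description of the windows; binding was not measured.

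None of the 11 probe sets differed by 1.5-fold between the pools in either direction. Of all probe sets with 1 symbol, 6.92% did (4.40% higher and 2.52% lower in CD36KO), so 0 of 11 is near the background and is no result about these genes. The differences, each the CD36KO minus the WT value on the deposited log2 scale, ran from -0.21 to 0.47 with a median of -0.07. The median over all probe sets with 1 symbol was -0.0036. The median size of the difference, without its sign, was 0.10 for the members and 0.18 for all probe sets with 1 symbol. In sign, 4 probe sets read higher in CD36KO (Klf2, Dusp1, Egr1 and Fosb) and 7 read lower, 5 of the 11 lay within 0.1 of 0, and 8 lay within 0.25.

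**Figure D1:**
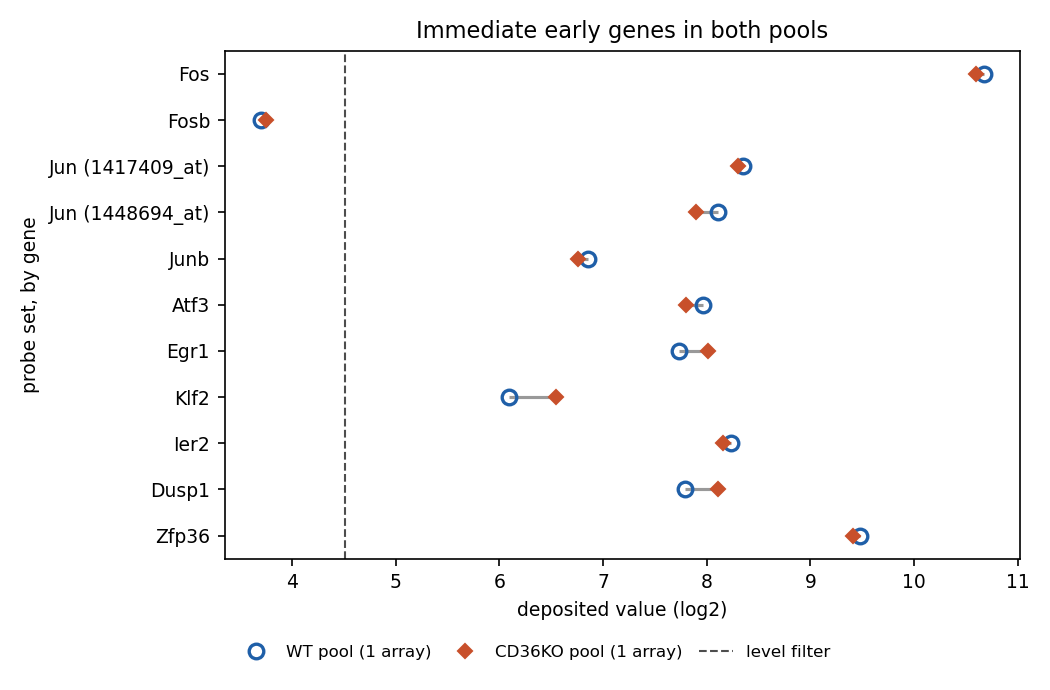
Deposited log2 value of each member probe set (rows) in the WT pool (open circles) and the CD36KO pool (filled diamonds), 1 array each and therefore without error bars; the dashed line is the level filter of 4.51. The symbols of most rows touch, the widest gap is that of Klf2 at 6.09 and 6.55, and Fosb alone lies left of the filter.

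A level filter was set at 4.51, the median over all probe sets of the higher of their array values. On both arrays 10 of the 11 probe sets, of 9 genes, were at or above it, and Fosb was below it on both. No member passed it through 1 pool alone. Among the 19482 probe sets with 1 symbol above the filter, 10.3% differed by 1.5-fold (6.86% higher and 3.46% lower) and the median size of the difference was 0.20. Values are compared below between the pools at the same probe set, since the probes of different genes differ in brightness. A linear sum over a marker list, where given, covers the same probe sets in both pools and is weighted to its brightest ones.

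The AP-1 genes read level or slightly lower in the CD36KO pool. Fos, which encodes the FOS partner of AP-1, read 10.67 in WT and 10.60 in CD36KO, a difference of -0.07 or 95.4% of the WT value. Junb, a JUN-family partner that often restrains JUN, read 6.86 and 6.76, a difference of -0.10. Jun, the main DNA-binding partner, was read by separate probe sets made from the same RefSeq transcript. The first read 8.35 in WT and 8.30 in CD36KO (-0.05), and the second 8.11 and 7.90 (-0.21, 86.2% of WT). Both were lower in CD36KO, by differences of unequal size. The second of them, the lowest member, lay nearer to 0 than 42.1% of all probe sets with 1 symbol.

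Atf3, a stress-induced factor that pairs with JUN and represses inflammatory genes, read 7.96 in WT and 7.80 in CD36KO, a difference of -0.16 or 89.3% of WT. Fosb, a FOS relative best known from nerve cells, read 3.70 and 3.75 (0.05). Both Fosb values were under the level filter, which is not a detection limit. Without detection calls a low level cannot be told from no signal there, and the Fosb difference cannot be judged. The 5 other AP-1 probe sets all read lower in CD36KO, by between -0.21 and -0.05. With 1 array per genotype this common sign cannot be set against replicate error.

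The zinc finger factors Egr1 and Klf2 read higher in the CD36KO pool. Egr1, which is induced by growth factors, wounding and stretch, read 7.73 in WT and 8.01 in CD36KO, a difference of 0.28 or 1.22-fold. Of all probe sets with 1 symbol, 30.5% lay further from 0. Klf2, a factor of endothelial cells under flow and of resting lymphocytes, read 6.09 and 6.55, a difference of 0.47 or 1.38-fold. This was the widest gap of the 11, yet 12.1% of all probe sets with 1 symbol, and 16.5% of those above the filter, lay further from 0.

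Ier2, a small nuclear protein induced by serum, read 8.23 in WT and 8.16 in CD36KO, a difference of -0.07. Of the genes that end the response, Dusp1 read higher and Zfp36 did not. Dusp1, the phosphatase that inactivates p38, JNK and ERK kinases, read 7.79 in WT and 8.11 in CD36KO, a difference of 0.32 or 125% of the WT value, and 25.5% of all probe sets with 1 symbol lay further from 0. Zfp36, or tristetraprolin, which binds AU-rich mRNAs of cytokines and speeds their decay, read 9.48 and 9.41 (-0.07, 95.4% of WT). Fos, Ier2 and Zfp36 thus differed between the pools by 1.05-fold each, while Dusp1, Egr1 and Klf2 read 1.22-fold to 1.38-fold higher in CD36KO.

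**Figure D2:**
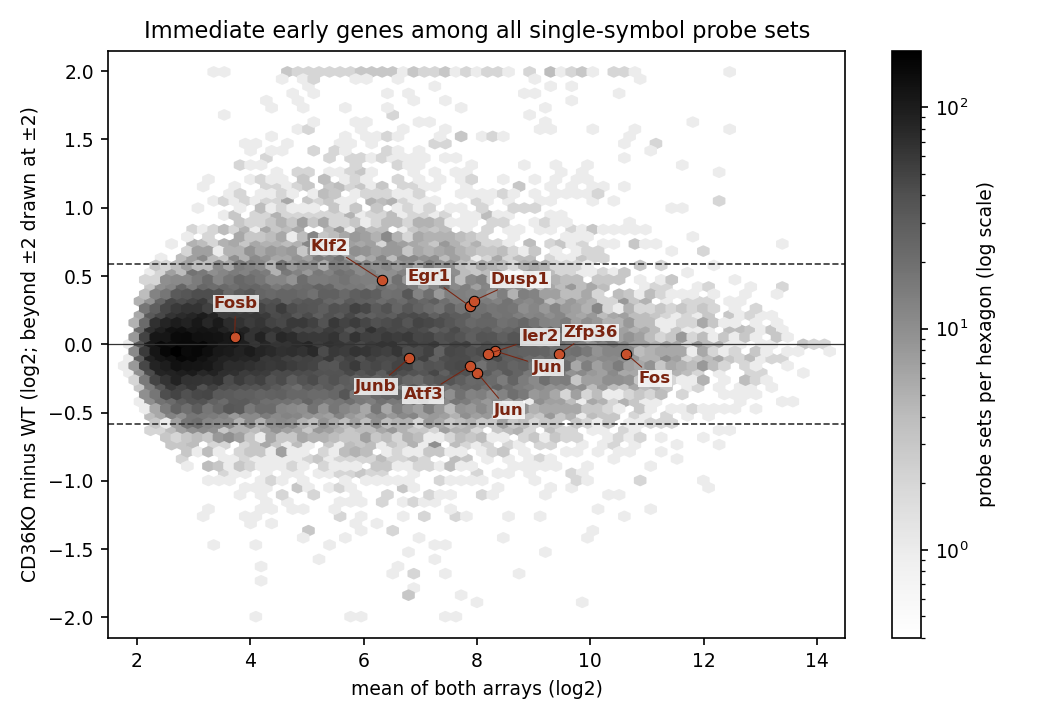
CD36KO minus WT difference (log2) against the mean of both arrays (log2) for the 34958 probe sets with 1 symbol (grey hexagons, darker with more probe sets on a log scale; differences beyond the axis are drawn at its edge) and the 11 member probe sets (orange points, 1 array per genotype). Dashed lines mark 1.5-fold; all members lie between them, from -0.21 for the second Jun probe set to 0.47 for Klf2.

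The pools also differed in RNA coverage and in marker genes. For beta-actin, the 3' control probe set exceeded the 5' one by 2.28 in WT and by 1.34 in CD36KO (log2). For GAPDH this excess was 1.28 and 0.71, and for pyruvate carboxylase 3.59 and 3.28. Marker lists of pancreatic acinar cells (median difference 1.59) and the distal small intestine (1.74, led by Fabp6 at 6.67) read higher in CD36KO. So did lists of fibroblasts (0.82), smooth muscle (0.42), epithelium (0.29), mast cells (0.29) and macrophages with dendritic cells (0.26). A list of the proximal small intestine read lower (-0.86). Of the 8 mast cell markers, 5 were below the level filter on both arrays, and the median was 1.04 over those above it. Among the latter, Mcpt1 (4.06 in WT and 6.02 in CD36KO) passed the filter through CD36KO alone. So did Fgf15 (3.47 and 7.58) and Slc10a2 (2.50 and 4.58) of the distal list and Cd68 (3.46 and 5.18) of the macrophage list. Osr2 of the distal list read -0.14 at its other probe set. The fibroblast median rests on the choice of probe sets and was -0.05 when each gene was read at its least different probe set. The 3 probe sets of Cd36 read below their WT values (7.70, 7.68 and 4.74) in the CD36KO pool (5.87, 6.02 and 3.52), and 2 of them were above the level filter there; where these lie relative to the deleted part is not known here. In whole tissue, fewer cells of a type and less RNA per cell cannot be told apart. The part of these differences in the members' values was not tested.

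Markers of the cell types that make Klf2 did not all differ one way. Of 16 blood endothelial markers measured, 14 read higher and 2 lower in CD36KO, with a median of 0.31; 2 passed 1.5-fold, Pecam1 (3.90 in WT, 4.73 in CD36KO) and Emcn (4.48 and 5.32), an endothelial adhesion molecule and a sialomucin of veins and capillaries. Both were under the level filter in WT and passed it through CD36KO alone. The sum of the 16 values on the linear scale was 1011 in WT and 1182 in CD36KO, a log2 ratio of 0.22, with Plvap making up 29.3% of the WT sum. Of 15 T and NK cell markers, 7 read higher and 8 lower, the median was -0.01, and Klrd1, a receptor of NK cells, was the 1 past 1.5-fold (6.80 in WT and 5.91 in CD36KO). Their linear sum was 3668 in WT and 3411 in CD36KO, but Gzma made up 55.4% of it in WT. Of 10 B and plasma cell markers 8 read higher, with a median of 0.33, and 2 passed 1.5-fold, the B cell antigen gene Ms4a1 (5.32 and 6.28) and the coactivator gene Pou2af1 (6.33 and 7.26). Their linear sum was 7007 in WT and 7566 in CD36KO, with Jchain making up 57.1% of it in WT. Genes known to depend on KLF2 or related to it had a median of 0.14 over 7 measured. Above the 75th percentile filter only the relatives Klf3 (0.14) and Klf7 (-0.27) remained, with a median of -0.06. Of the 7, 0 passed 1.5-fold, near the background of 3.81% of all genes higher and 2.60% lower. Among these, Thbd, the endothelial thrombin receptor thrombomodulin, differed by 0.31 and Nos3, the endothelial nitric oxide synthase, by 0.08. The kinases of the ERK5 route to Klf2 differed by 0.23 (Map2k5) and -0.04 (Mapk7). The part of the endothelial and B cell markers in the Klf2 value was not tested.

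The wider immediate early programme was read from 76 further genes, of which 74 had a probe set with 1 symbol. At the probe set with the highest mean per gene, 5 of the 74 (6.76%) were at least 1.5-fold higher in CD36KO, 3 (4.05%) at least 1.5-fold lower, and 66 within 1.5-fold, with a median difference of 0.08. Over all 18194 genes these shares were 3.81% and 2.60%, and over the 11981 genes above the filter they were 5.31% and 3.31%. The shares of the wider programme thus lay near the background in both directions. Of the 74 genes, 9 were below the filter on both arrays.

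Higher in CD36KO were Trib1 (6.10 in WT and 6.89 in CD36KO), a pseudokinase that directs C/EBP proteins to degradation, Gadd45g (6.92 and 7.66), a growth arrest protein, and Rhob (9.02 and 9.70), a small GTPase. Batf2 (7.81 and 8.46), an AP-1 relative of myeloid cells, and Klf5 (10.65 and 11.24), a factor of crypt cells, were higher as well. Lower in CD36KO were Plaur (5.46 in WT and 4.55 in CD36KO), the urokinase receptor, Nr4a2 (5.62 and 5.01), an orphan nuclear receptor, and Nfkbiz (9.10 and 8.49), a nuclear IkB protein. Of the 4 of these genes that had several probe sets, 0 passed 1.5-fold the same way at each. Trib1 read -0.22 at its other probe set, Klf5 between -0.50 and 0.01, Nr4a2 between -0.79 and 0.13, and Nfkbiz between -0.71 and -0.02.

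Close relatives of the members differed in either direction. Of 12 other AP-1 family genes, Batf2 alone passed 1.5-fold, with a list median of 0.09 that was -0.01 at each gene's least different probe set. Jund differed by -0.01 and Fosl2 by 0.29, the latter with -0.21 at its other probe set. Of 10 other Dusp phosphatases 0 passed, near the background of all genes (3.81% higher, 2.60% lower). Their median of 0.03 had no stable sign, being -0.07 with probe sets averaged and -0.08 at the least different one. Above the 75th percentile filter, where only Dusp5, Dusp6 and Dusp16 remained, it was -0.45. The 10 genes covered a range from -0.47 (Dusp5) to 0.58 (Dusp10, with -0.05 at its other probe set). Dusp6, the phosphatase that tracks ERK activity, differed by 0.06. Zfp36l1, a relative of Zfp36, read 8.41 in WT and 8.40 in CD36KO, with 0.58 at its other probe set, and Zfp36l2 differed by 0.23. Nab2, which is induced by EGR1 and represses its activity, differed by -0.52, or 1.43-fold lower in CD36KO, whereas its relative Nab1 differed by 0.15, with up to 1.19 at another probe set.

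Upstream of the members, 19 of 23 listed kinases and transcription factors were measured. Their median was 0.14, and 0.03 at each gene's least different probe set. Past 1.5-fold were 5.26% higher and 5.26% lower in CD36KO, near the background of all genes (3.81% higher, 2.60% lower). Elk3, an ELK partner of SRF, was the 1 gene past 1.5-fold higher (4.37 in WT, under the filter, and 5.22 in CD36KO; other probe sets between -0.09 and 0.42). Rps6ka5, the kinase MSK1 that phosphorylates histone H3 and CREB at early genes, was the 1 gene past it lower (6.34 and 5.61; other probe sets between -0.85 and 0.01). Srf itself differed by 0.19. Downstream, of 12 cytokine and related mRNAs bound by ZFP36, 7 were below the filter on both arrays. The median was 0.09 over the 12 and -0.10 over those above the filter. Csf2, a myeloid growth factor, was the 1 past 1.5-fold, at 5.78 in WT and 5.02 in CD36KO. This was 8.33% of the 12, beside 2.60% of all genes lower. Tnf, the best studied ZFP36 target, read 5.19 and 5.47, a difference of 0.27.

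Other responses to handling or stress were read from separate lists. Of 14 heat shock genes 0 passed 1.5-fold, near the background of all genes (3.81% higher, 2.60% lower). The median was 0.01, with Dnajb1 at 8.57 in both pools, Hspa1b at 7.90 in WT and 7.93 in CD36KO, and the small chaperone gene Hspb1 highest at 0.52. With probe sets averaged the median was 0.14, and single other probe sets read 0.59 for Hsph1 and up to 0.93 for Hsp90aa1. Of 14 hypoxia response genes 3 passed it higher (21.4%, beside 3.81% of all genes and 5.31% of those above the filter) and 0 lower. The median was 0.07, and 0.27 with probe sets averaged. The genes past it were Egln3 (8.31 and 9.08; 0.26 at its other probe set), a prolyl hydroxylase that marks HIF for decay, P4ha1 (4.83 and 5.47; 0.12 at its other probe set), a collagen prolyl hydroxylase, and Ddit4 (7.62 and 8.22), an inhibitor of mTORC1. Of the 14, 8 read higher and 6 lower. Vegfa, the hypoxia-induced endothelial growth factor, differed by -0.05, and Car9 was lowest at -0.50. Single other probe sets read 1.21 for Adm and 0.92 for Pfkfb3.

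Of 12 genes of the integrated stress response, which induces Atf3 through ATF4, 2 passed 1.5-fold higher (16.7%, beside 3.81% of all genes and 5.31% of those above the filter). The median was -0.01, and 0.12 at each gene's least different probe set. Nupr1, a stress protein first described in injured pancreas, read 6.23 in WT and 7.87 in CD36KO, 3.12-fold higher, and 3.48-fold at its other probe set. Asns, the asparagine synthetase, read 7.25 and 8.03, with 0.48 at its other probe set. Atf4 differed by 0.01 and Ddit3, its partner CHOP, by -0.22. In the same pools 13 of 14 acinar pancreas genes read higher by 1.5-fold or more in CD36KO, with a linear sum of 15500 in WT, 45.2% of it from Reg1, and 35188 in CD36KO; the part of this in the Nupr1 and Asns values was not tested. Targets of the glucocorticoid receptor, another stress and time-of-day signal that also induces Dusp1, had a median of -0.27 over 9 genes, and 0.04 with the mean over each gene's probe sets. Of the 9, 3 read higher and 6 lower. Past 1.5-fold were 1 gene higher and 1 lower (11.1% each, beside 3.81% higher and 2.60% lower of all genes). The higher was Fkbp5, a receptor co-chaperone, at 6.76 in WT and 7.39 in CD36KO (between -0.12 and 0.15 at other probe sets). The lower was the metallothionein Mt1, at 10.91 and 10.29 (0.11 at its other probe set).

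**Figure D3:**
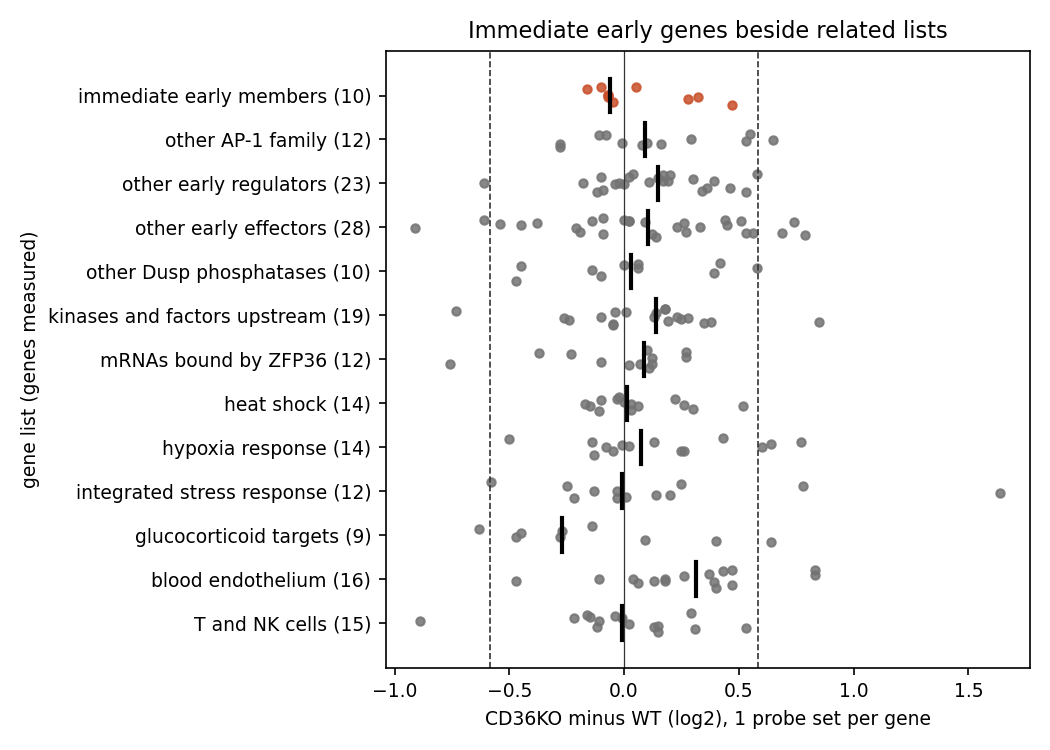
CD36KO minus WT difference (log2) of each gene at its probe set of highest mean, by gene list (rows, with the number of genes measured), 1 array per genotype; black bars are list medians and dashed lines mark 1.5-fold. The 10 member genes (orange) lie between -0.16 and 0.47 with a median of -0.06. In the 13 lists drawn, whose cell type markers are those of blood endothelium and of T and NK cells, the widest point is Nupr1 at 1.64.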

How the data were processed

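Messenger RNA was measured on 2 Affymetrix arrays, 1 per genotype. Per the labels' protocols, RNA was extracted with TRIzol, pooled from 3 animals, and 100 ng of total RNA made biotinylated cRNA. The values were deposited by the authors on a log2 scale, which was inferred from their range (the highest is 14.2); the summarization, normalization and detection calls are not stated in any source at hand. Each array had a median of 4.38.

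Probe sets were named from the array's annotation, in which 34958 had 1 gene symbol, 932 several and 9211 none; of the first, 34754 had an identifier in the RefSeq table of GRCm38.p6. The CD36KO minus WT difference was taken with no further normalization, and 1.5-fold was used as a descriptive threshold. With 1 array per group no test was run. For lists, each gene's probe set with the highest mean was used. All 10 members were named at every probe set, and of the lists described the genes past 1.5-fold, up to 4, except for whole-tissue marker lists given by their median; other genes were named after their values were seen. The members and the 26 other lists were chosen with earlier results of these data known. Counting and scaling were tested on simulated data with planted shifts larger than any member difference. That test says nothing about differences as small as those of the members. The tools were pandas 2.3.3 and NumPy 2.4.6 for the arithmetic, statsmodels 0.14.6 for lowess and matplotlib 3.10.9 for plots, under Python 3.11.15.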

Additional observations from a re-analysis of the deposited data

How the results depend on the processing

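The counts of members past 1.5-fold stayed at 0 in either direction under quantile normalization, with array medians made equal and with a lowess trend taken out (fraction 0.3). Further settings were level filters at the median (4.51) and the 75th percentile (6.60), 1 probe set per gene and a 2-fold threshold. These can only keep or lower a count, so a count of 0 could not change under them. At a threshold of 0.32 on the log2 scale 1 probe set was higher in CD36KO, that of Klf2, beside 13.0% of all probe sets with 1 symbol; Dusp1, which also rounds to 0.32, lay just under it. The members' median ran from -0.07 to -0.04. Of 67 values of single members under these settings and under other rules for combining probe sets, 0 changed sign and 0 passed 1.5-fold. Many of the 67 could not have moved. The filters and the rules for combining probe sets could shift Jun alone, the 1 member with several probe sets. For the other members they repeated the main value or dropped the gene. The scalings, which could shift every member, moved a member by at most 0.04. Of 178 medians of the other lists, 30 moved by over 0.1 or across 1.5-fold, not counting 1 that reversed from past 1.5-fold. Of the same 178, 16, of 13 lists, had the opposite sign to the value given first. In the main value 1 of these was past 1.5-fold, that of the fibroblast list, which was -0.05 when each gene was read at its least different probe set. No replicate could be left out and no paired analysis was possible because each genotype was 1 array of a pool. The number of arrays limits every value.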
